A study of Mus musculus with 6 samples.

Results

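The regions of 8 mouse germline genes were described for DNA methylation in skeletal muscle: Tdrd1, Tdrd5, Tdrkh and Rnf17, which encode Tudor-domain proteins, Ddx4 and Mael, which encode factors of the piRNA pathway, and Dazl and Adad1, which encode RNA-binding proteins of germ cells. All rows whose RefSeq transcript belonged to one of these genes were taken, which gave 8 gene regions of 10755 and 158 cytosine positions of 268725. The genes were chosen with results of the exercised against sedentary contrast already known, Tdrd1 and Adad1 among the regions with the smallest p, so the differences between the groups are given as a description and not as a test of these genes. Genomic DNA came from quadriceps muscle of C57BL/6 mice. The exercised group (3 samples) had run on a motor-driven treadmill for 4 weeks and the sedentary group (3 samples) served as the control. Muscle DNA of the exercised group was collected 3 hours past the final bout, and no such time is given for the sedentary group. The 4 weeks of running and the final bout cannot be told apart in this design. No genetic change or other agent is named in the labels for either group, and neither ages nor the number of mice behind a sample is given there.

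Piwi-interacting RNAs (piRNAs) are small RNAs that guide PIWI proteins to transposon transcripts in germ cells, where they lead to cleavage of the RNA and to DNA methylation of the transposon. Tudor-domain proteins bind methylated arginines of PIWI proteins and hold the pathway together in cytoplasmic germ granules. In somatic tissues such as muscle these genes are largely silent, and the CpG-rich promoters of several of them, Ddx4, Dazl and Mael included, are known to carry DNA methylation there.

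Methylation was measured by reduced representation bisulfite sequencing (RRBS). DNA is cut with the enzyme MspI at the site CCGG, and bisulfite then turns the cytosines that carry no methyl group into bases sequenced as T. A region here is the 3000 bp stretch that the authors tied to a transcript, and its level is the share of all reads over its measured cytosines that were methylated. Summed over the deposited positions, coverage ran from 9153526 cytosine calls (sedentary sample 3) to 18656340 (sedentary sample 2). The member positions were covered by 10 to 195 reads in each sample, and sedentary sample 3 had the lowest mean coverage of the 6 samples in each member region except Ddx4, where exercised sample 1 was lower by less than 1 read. The labels do not say whether each sample was its own animal, so the spread may be technical. Muscle DNA comes from all cell types of the tissue, and a change in the cell mixture cannot be told apart from a change within 1 cell type.

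The 8 regions fell into a methylated and a mostly unmethylated set in these muscle samples. Over all 6 samples the mean level was 93.5% for Mael, 69.7% for Ddx4, 69.6% for Tdrd1, 68.2% for Rnf17 and 47.7% for Adad1. Dazl stood at 19.6%, Tdrkh at 15.3% and Tdrd5 at 15.2%. The gaps between the means of Ddx4, Tdrd1 and Rnf17 were smaller than the SD over exercised samples of each of them, and the same held for Tdrkh and Tdrd5. The median of the 8 was 58.0%, against 22% for all 10021 tested regions, of which 512 (5.11%) were at 50% or more. Of the 8 members, 4 were at 50% or more.

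**Figure D1:**
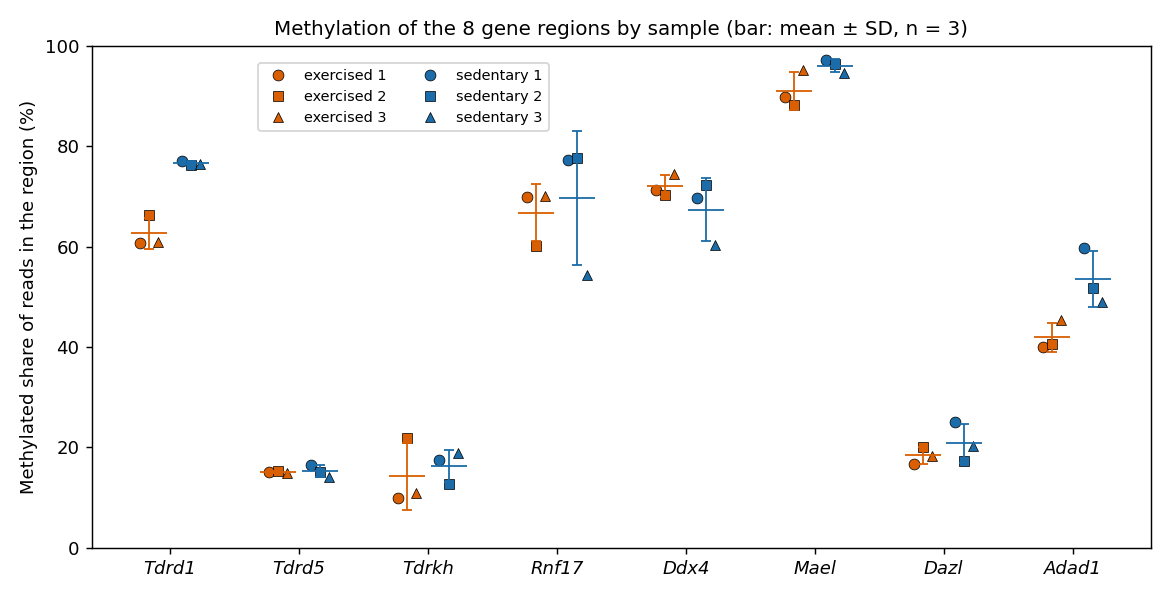
Share of reads methylated in each of the 8 gene regions (y axis, %), by sample, with exercised samples in orange and sedentary samples in blue; horizontal bars are group means and error bars are SDs (n = 3). The exercised samples lie below the sedentary samples without overlap for Tdrd1 and Adad1, and overlap them for the other 6 genes.

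The level of the exercised samples was lower than that of the sedentary samples for 7 of the 8 members, or for 4 of the 8 when region levels were unweighted means of positions. The median difference over the 8 was -2.70 percentage points. Over all tested regions it was 0.390 points, with 6117 regions higher and 3904 lower. Groups did not overlap for 2 members, both lower in exercised samples. Among all tested regions, 2.35% did not overlap with lower values and 4.91% with higher values. No member passed the test across all regions: 0 of 8 had an adjusted p under 0.05 (edgeR), the share over all tested regions being 0%. As the members were picked on this contrast, nothing is read from their direction.

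Tdrd1, a Tudor-domain scaffold that binds PIWI proteins, had the widest gap between the groups among the 8 regions. Its region (mm9, chr19:56898699-56901698) stood at 60.8%, 66.2% and 60.9% in exercised samples 1 to 3, and at 77.1%, 76.3% and 76.5% in sedentary samples 1 to 3. Every exercised sample lay below every sedentary sample, and the sedentary samples were within 1 point of each other. The means were 62.6% ± 3.12 and 76.7% ± 0.399 (SD, n = 3), a difference of -14.0 points (SE 1.82; edgeR adjusted p = 0.451). With 1 sample left out at a time the difference ran from -15.8 to -13.1 points. Single cytosines spread more than the region level, with a mean SD of 13.4 points over exercised samples and 11.5 over sedentary ones.

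The 16 measured Tdrd1 cytosines lie within 111 bp of this plus-strand gene, from 202 to 312 bp downstream of the start site with the start site placed from the data, and all were at 10% or more. The gap between the groups was not spread evenly over them. The first 5 cytosines, 202 to 231 bp downstream with near-equal coverage in every sample, stood at 69.3%, 46.3% and 61.2% in exercised samples and 79.4%, 77.4% and 95.8% in sedentary ones. A second set of 5, from 241 to 280 bp, stood at 46.2%, 69.3% and 56.3% against 77.3%, 80.3% and 74.3%. In both sets the groups were apart, yet exercised sample 2 was the lowest of all samples in the first and the highest exercised sample in the second. A set of 3 cytosines from 260 to 273 bp, on the opposite DNA strand of CpGs in the second set, stood at 67.3% ± 11.4 in exercised samples and 66.1% ± 2.86 in sedentary ones. The groups overlapped there, so the gap in the second set was not seen on the other strand of 3 of its CpGs. The cytosine with the largest fall, at position 56900967, stood at 41.1% ± 13.9 against 75.1% ± 12.9. Its partner on the other strand, at 56900968, had the largest rise, 69.3% ± 15.8 against 58.1% ± 12.9.

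**Figure D2:**
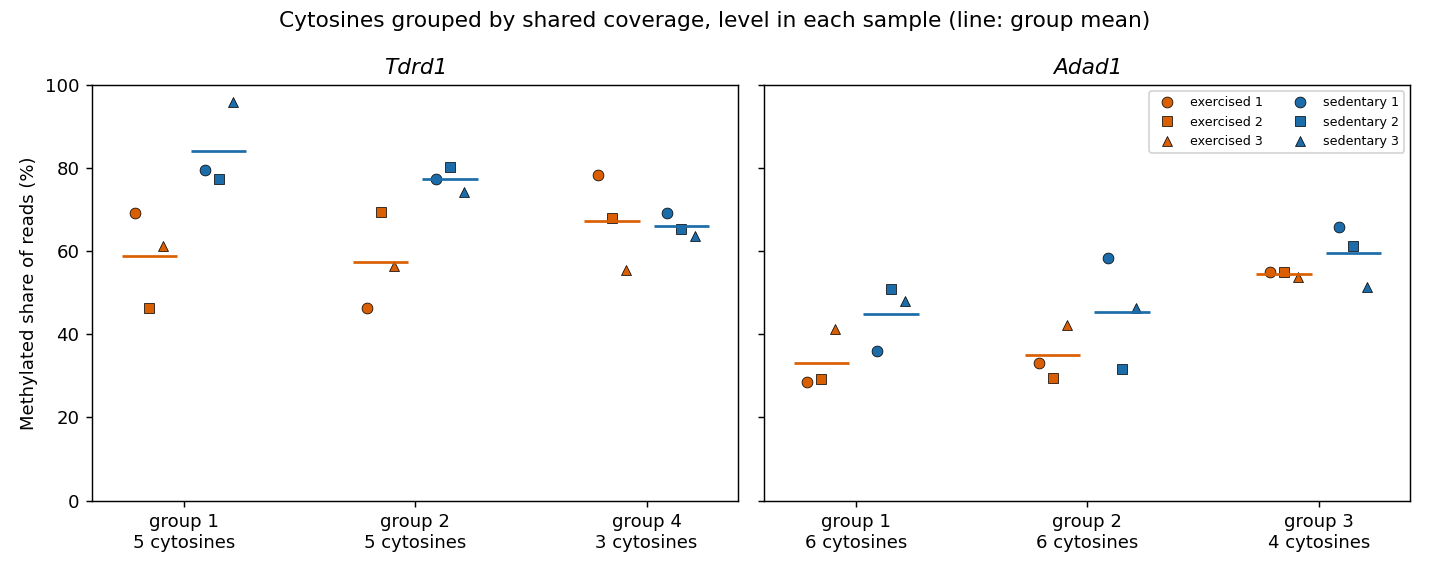
Methylated share of reads (y axis, %) for sets of cytosines with near-equal coverage in every sample, for Tdrd1 (left) and Adad1 (right), with 1 point per sample and lines at group means. The groups are apart in the sets of 5 Tdrd1 cytosines and overlap in the set of 3 and in all 3 Adad1 sets.

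Tdrd5, a Tudor-domain protein of the chromatoid body, showed nearly the same region level in all samples. Its region (mm9, chr1:158232480-158235479) stood at 15.1%, 15.3% and 14.9% in exercised samples and 16.5%, 15.1% and 14.1% in sedentary ones, a difference of -0.106 points (SE 0.715; edgeR adjusted p = 1.0). The groups overlapped. The difference was 0.668 points as an unweighted mean and 0.238 when only cytosines with 20 or more reads in every sample were kept. With 45 cytosines in 155 bp, Tdrd5 was the most densely measured of the 8 genes.

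The Tdrd5 level was made of 2 kinds of cytosine. Of its 45 positions 35 were nearly unmethylated, with levels up to 5.53%, and the other 10 stood between 18.8% and 99.3%. All 10 of these, and none of the 35, lay in CpGs inside an MspI site, the enzyme's own cut site. The stretch is shown because the 2 kinds alternate along it: 196 bases of the promoter, at -209 to -14 relative to the start site (RefSeq, GRCm38.p6, chr1:156303362-156303557, minus strand), with the 27 measured CpGs in capitals and 7 sites of the letters ccgg in either case.

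Tdrd5: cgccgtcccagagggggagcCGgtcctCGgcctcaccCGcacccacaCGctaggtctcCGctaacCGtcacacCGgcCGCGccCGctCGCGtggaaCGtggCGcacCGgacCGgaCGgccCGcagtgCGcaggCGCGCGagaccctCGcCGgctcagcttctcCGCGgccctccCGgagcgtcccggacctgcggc

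Along this stretch the first capital CpG, 188 bp upstream, was at 99.3%, and the next, outside an MspI site, was under 10%. At the 10 MspI-site positions the mean was 56.6% ± 3.28 in exercised samples and 55.3% ± 7.25 in sedentary ones, and at the 35 others 1.97% ± 0.0898 and 1.49% ± 0.520. Without the 10 positions the level of the region was 1.97%. The same position could differ widely between samples. The MspI-site cytosine 97 bp upstream stood at 21.1%, 96.3% and 97.8% in exercised samples and 97.1%, 82.9% and 62.5% in sedentary ones, with 34 to 76 reads each. The one 34 bp upstream stood at 73.9% in exercised sample 1 and at no more than 23.8% in the others. These were the largest fall and the largest rise in the gene, and in both the groups overlapped.

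The same split was present in the promoters of other genes, so the Tdrd5 values are given with it. In the 2198 regions that matched a RefSeq promoter window, cytosines inside MspI sites averaged 61.3% over 7030 positions and all others 4.43% over 20445 positions. Of the former 97.0% were at 10% or more, and of the latter 4.98%. RRBS fragments begin and end at these sites. Whether this sets the level read there was not tested.

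**Figure D3:**
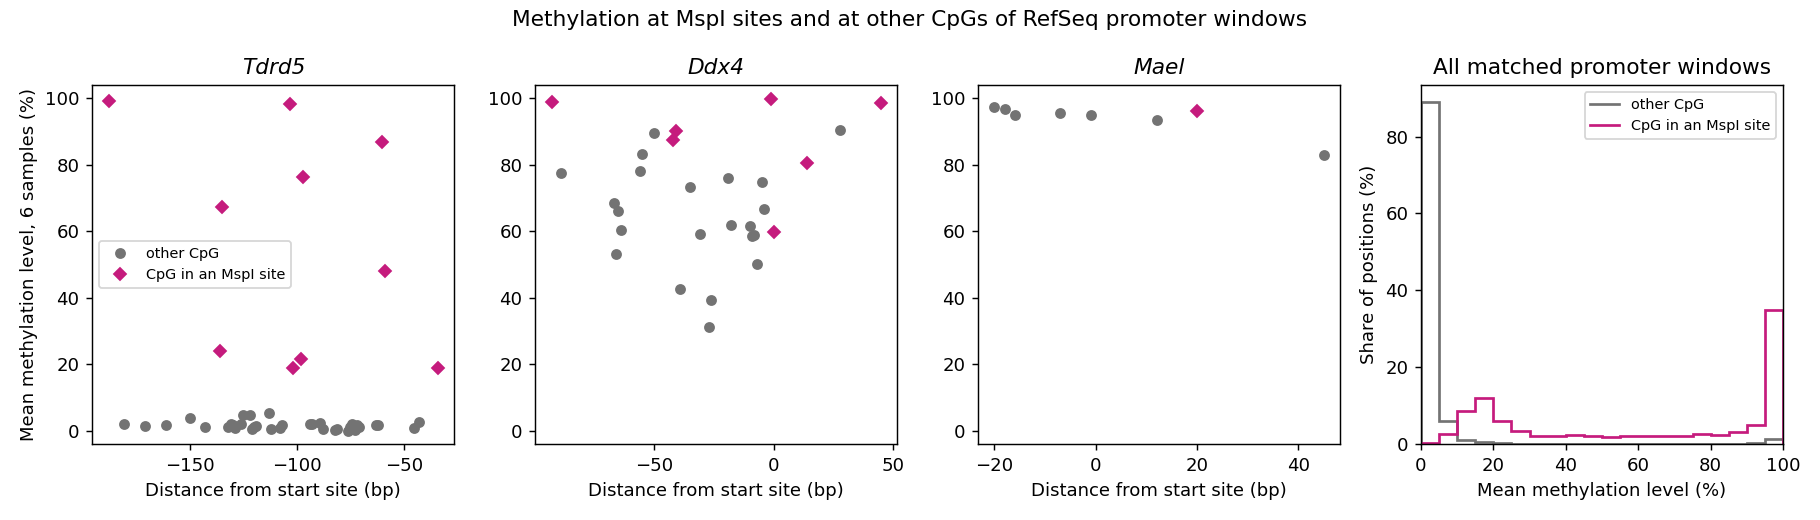
Mean methylation level over 6 samples (y axis, %) against distance from the start site (x axis, bp) for cytosines of Tdrd5, Ddx4 and Mael, and, at the right, the share of positions (%) by level for all matched promoter windows. CpGs in MspI sites (pink diamonds) stand apart from the others in Tdrd5, with means of 56.0% and 1.73%, and both kinds are methylated in Ddx4 and Mael.

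Tdrkh, which anchors piRNA trimming at the mitochondrial surface, rested on 5 cytosines. Its region (mm9, chr3:94215240-94218239) stood at 9.82%, 21.8% and 11% in exercised samples and 17.4%, 12.8% and 18.8% in sedentary ones, a difference of -2.14 points (SE 4.24; edgeR adjusted p = 1.0). The groups overlapped, and the sign turned without exercised sample 1 (0.0521 points). Of the 5 cytosines, 1 was a stand-alone position, that is a cytosine at 10% or more whose neighbours within 200 bp have a median under 5%. It stood at 98.5%, and without it the level of the region was 2.37% and the difference 1.10 points.

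Rnf17, also known as Tdrd4, joins Tudor domains to a RING finger and acts in spermatid development. Its region (mm9, chr14:57019534-57022533) stood at 69.9%, 60.2% and 70.1% in exercised samples and 77.2%, 77.7% and 54.3% in sedentary ones. Sedentary sample 3, the sample with the lowest coverage, was the lowest of the 6, and the groups overlapped. The difference was -2.97 points (SE 8.36; edgeR adjusted p = 1.0), or -10.7 points without sedentary sample 3, 0.991 without sedentary sample 2, 0.756 without sedentary sample 1 and 0.309 without exercised sample 2. All 7 cytosines were at 10% or more. At the one with the largest fall (position 57021725) the levels were 33.3%, 55.0% and 54.5% against 58.3%, 94.1% and 80.0%, at 10 to 20 reads, and the groups did not overlap. The largest rise was 7.88 points at position 57021713, where 4 of the 6 samples were at 100%.

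Ddx4 (Vasa), a DEAD-box RNA helicase of germ granules, was methylated across its start site. Its region (mm9, chr13:113441519-113444518) stood at 71.3%, 70.4% and 74.5% in exercised samples and 69.6%, 72.2% and 60.3% in sedentary ones. Ddx4 was the only one of the 8 with a higher mean in exercised samples, with overlapping groups and sedentary sample 3 below the rest. The difference of 4.68 points (SE 3.82; edgeR adjusted p = 1.0) was 1.14 without sedentary sample 3, 7.10 without sedentary sample 2 and 0.0180 at cytosines with 20 or more reads in every sample.

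All 29 Ddx4 cytosines, from 93 bp upstream to 45 bp downstream of the start site, were at 10% or more, and 26 at 50% or more. The bases upstream of the start site are shown because methylation here was present both at MspI sites and between them: 114 bases (RefSeq, GRCm38.p6, chr13:112652311-112652424, minus strand), with 15 measured CpGs in capitals.

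Ddx4: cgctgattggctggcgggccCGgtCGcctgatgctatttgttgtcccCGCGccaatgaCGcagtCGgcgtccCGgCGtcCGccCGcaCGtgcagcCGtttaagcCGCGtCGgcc

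In Ddx4 the 7 MspI-site positions averaged 87.9% and the 22 others 64.6%. The lowest levels of all 29 were at both strands of 1 CpG, 27 and 26 bp upstream, with 31.4% and 39.4%. This CpG is the centre of the letters CACGTG, an E-box, which is the sequence read by MYC and MAX family factors. Of 5 cytosines between 26 and 4 bp upstream that share coverage, all on 1 strand, the exercised samples stood at 57.9%, 60.3% and 66.3% and the sedentary samples at 52.4%, 54.2% and 40.0%, with the groups apart. The 6 cytosines from 27 to 1 bp upstream on the other strand stood at 66.2% ± 2.90 against 68.7% ± 12, with the groups overlapping. The largest fall was at 64 bp upstream, with 48.4% ± 13.5 against 72.6% ± 4.07. The largest rise was at 9 bp upstream, with 70.8% ± 8.77 against 46.6% ± 20.1.

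**Figure D4:**
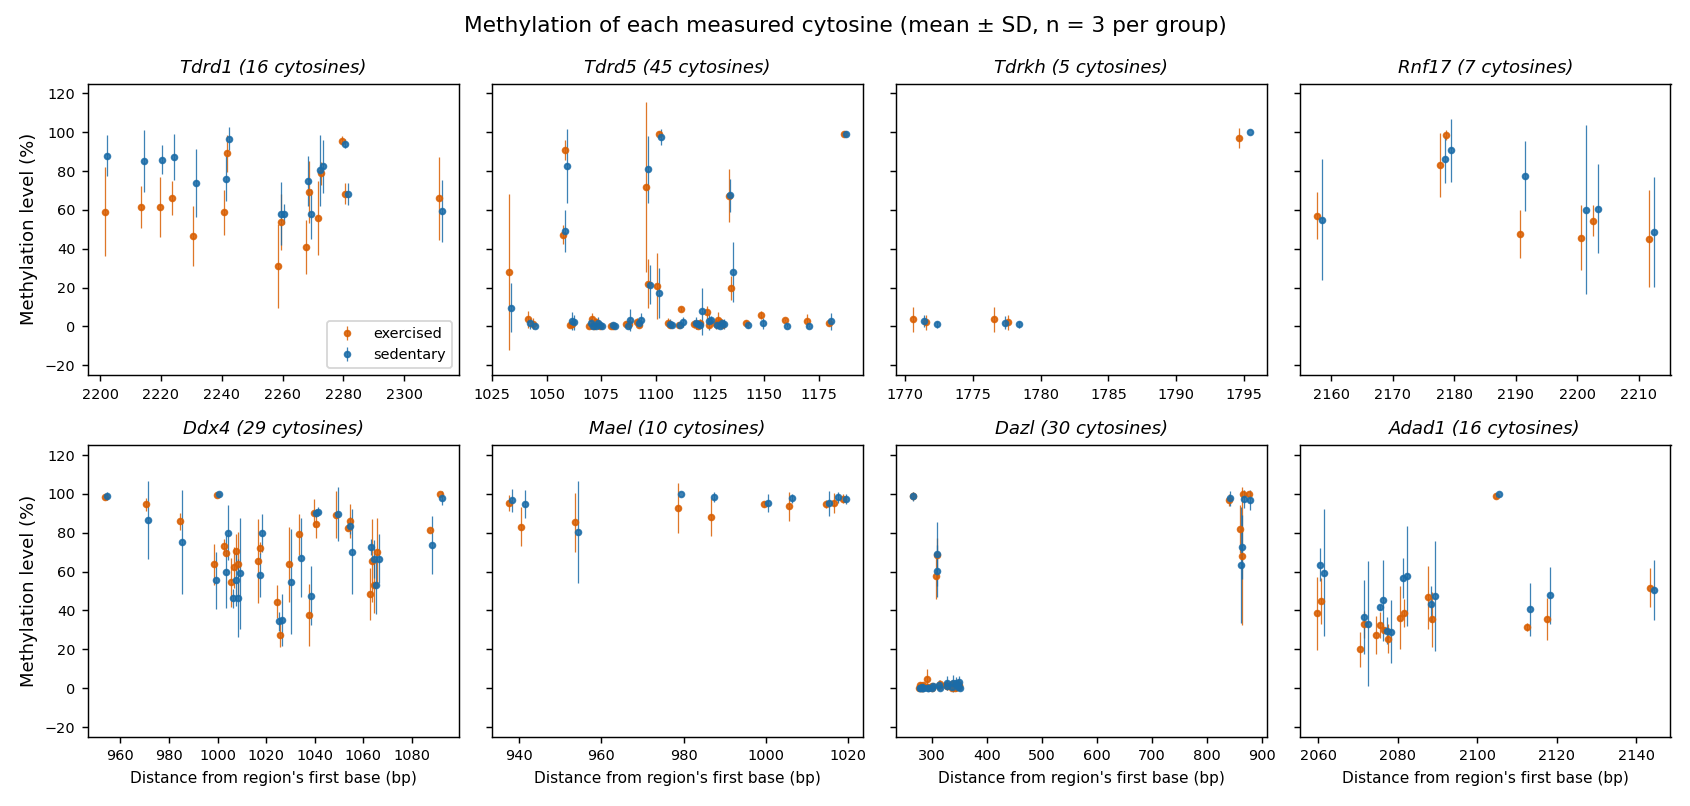
Methylation level of each measured cytosine (y axis, %) against its distance from the first base of the region (x axis, bp, in genome order) for the 8 genes, with exercised means in orange and sedentary means in blue (SD, n = 3). Tdrd5, Tdrkh and part of Dazl have most cytosines near 0% with a few high ones, and Mael lies between 82.9% and 97.4% throughout.

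Mael, an HMG-box protein of germ granules needed for transposon silencing, had the highest level of the 8 genes. Its region (mm9, chr1:168167876-168170875) stood at 89.7%, 88.2% and 95.3% in exercised samples and 97.1%, 96.4% and 94.6% in sedentary ones. Exercised sample 3 lay above sedentary sample 3, so the groups overlapped. The difference was -4.98 points (SE 2.28; edgeR adjusted p = 1.0). All 10 cytosines were between 82.9% and 97.4%. The largest fall was at position 168168817, with 83.1% ± 10.01 against 94.8% ± 7.16, and the largest rise at 168168830, with 85.3% ± 15.1 against 80.4% ± 26.3, where sedentary sample 3 had 10 reads. The 40 bases before the start site (RefSeq, GRCm38.p6, chr1:166238745-166238784, minus strand) are shown as the most evenly methylated stretch of the 3 genes printed, with 4 measured CpGs in capitals.

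Mael: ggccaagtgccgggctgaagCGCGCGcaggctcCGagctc

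The 3 cytosines that share coverage at these CpGs, 20 to 16 bp upstream, stood at 95.8% ± 0.702 in exercised samples and 96.9% ± 2.76 in sedentary ones, and the groups overlapped.

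Dazl, a translational regulator that binds RNA in germ cells, had 2 separate measured blocks with opposite states. Its region (mm9, chr17:50431925-50434924) stood at 16.8%, 20.2% and 18.3% in exercised samples and 24.9%, 17.2% and 20.3% in sedentary ones, a difference of -2.42 points (SE 2.44; edgeR adjusted p = 1.0) with overlapping groups. The difference was -0.357 without sedentary sample 1, -4.21 without sedentary sample 2, -1.60 without exercised sample 1, -1.23 at cytosines with 20 or more reads in every sample and 0.657 as an unweighted mean of positions. From 122 to 158 bp downstream of the start site, 5 cytosines stood between 70.3% and 98.7%. From 649 to 733 bp downstream, 25 cytosines were measured, of which 3 stand-alone positions were at 59.0%, 68.8% and 98.8% and the other 22 were under 10%. The largest fall and rise were next to each other in the methylated block, -4.89 points at 136 bp and 18.6 points at 138 bp downstream, and both had overlapping groups at 11 to 39 reads.

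Adad1, a double-stranded RNA-binding protein of spermatids, had a middling level and groups that did not overlap. Its region (mm9, chr3:36960578-36963577) stood at 39.9%, 40.6% and 45.3% in exercised samples and 59.8%, 51.7% and 49.0% in sedentary ones. Every exercised sample lay below every sedentary sample, with the smallest gap between exercised sample 3 and sedentary sample 3. The means were 41.9% ± 2.92 and 53.5% ± 5.60, a difference of -11.5 points (SE 3.65; edgeR adjusted p = 1.0), which was -4.97 points at cytosines with 20 or more reads in every sample. The 16 cytosines formed 3 sets by shared coverage. The 6 cytosines on the first bases of CpGs stood at 33.0% ± 7.15 against 45.0% ± 7.94, their partners on the second bases at 34.9% ± 6.54 against 45.5% ± 13.3, and 4 further cytosines at 54.5% ± 0.708 against 59.5% ± 7.37. In none of the 3 sets were the groups apart, unlike in the region as a whole. The region level weights cytosines by their reads. The 4 further cytosines had the highest levels and a mean coverage of 65.0, against 29.1 and 29.5 in the other sets. Their share of the reads differed between samples. As an unweighted mean of positions the region difference was -9.79 points. How much of the gap comes from this weighting was not tested. The largest fall was at position 36962638, with 38.6% ± 18.7 against 63.6% ± 8.41, and the largest rise at 36962666, with 46.8% ± 16.2 against 43.5% ± 9.34.

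Over single cytosines of the 8 genes, 84 of 153 tested were lower and 69 higher in exercised samples. All 158 cytosines formed 52 sets by shared coverage, some of 1 cytosine, and cytosines of the same set are not independent. Groups did not overlap at 11 lower and 3 higher cytosines, where 2.15% and 4.01% of all 253960 tested positions did so. Tdrd1 held 4 of the 11, and Ddx4 and Adad1 held 2 each. In edgeR's test over all positions 0 of 153 were called, the share over all positions being 0%. In the authors' deposited table, 3 lower and 2 higher member cytosines had an unadjusted p under 0.05, where the shares over all tested positions were 0.983% and 2.15%. In the authors' deposited table the lower ones were in Tdrd1 (56900967, -33.9 points), Ddx4 (113442582, -24.2) and Dazl (50432269, -2.32). The higher ones were both in Tdrd5 (6.79 and 2.75 points). The Dazl cytosine, at a mean of 1.53%, and both Tdrd5 cytosines were at levels under 10%.

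Other genes of the piRNA pathway showed high and low levels in these muscle samples. Of 36 genes in a list of the pathway, 14 had a tested region, and 8 of these were not members. The 3 at 50% or more were Mov10l1, the helicase that starts piRNA processing, at 87.8%, Pnldc1, the trimming nuclease, at 90.3%, and Btbd18, a regulator of piRNA cluster transcription, at 95.6%. The other 5 lay between 11.4% and 35.5%. Of the 8, 4 were higher and 4 lower in exercised samples, with a median difference of 0.144 points, and none passed the test (edgeR) or had groups that did not overlap. Mov10l1 stood at 86.6% ± 1.68 against 89.1% ± 2.18, and Btbd18 at 95.3% ± 4.30 against 95.8% ± 4.18.

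Among germ cell RNA-binding genes, 27 regions outside the members were tested, and 6 were at 50% or more. These were Tnp1 and Prm1, which package sperm chromatin and stand in the list for their translationally stored transcripts, at 97.3% and 63.0%, the poly(A)-binding protein gene Pabpc6 at 95.8%, Adad2, the paralog of Adad1, at 91.8%, Nanos3 at 87.6% and Meioc at 51.1%. Adad2 stood at 92.4% ± 2.62 in exercised samples and 91.3% ± 2.10 in sedentary ones, with overlapping groups, beside the gap in Adad1. Levels were higher in exercised samples for 17 of the 27 and lower for 10, the median difference being 0.482 points, and 0 passed the test (edgeR). Groups were apart in 4 of the 27, higher for Tnp1 (1.97 points), Tsn (3.09) and Ythdc2 (0.824) and lower for 1 region of Elavl2 (-2.21). Among all tested regions 4.91% were apart with higher values and 2.35% with lower values. Tsn, Ythdc2 and this Elavl2 region stood at 21.4%, 13.3% and 17.4%. Without stand-alone positions their levels were 3.36%, 1.77% and 2.16%.

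Genes of meiotic chromosomes and germline defence were often methylated. Of 15 tested regions outside the members, 7 were at 50% or more: Hormad1 (96.9%), Stra8 (95.6%), Sycp1 (94.7%), Syce1 (89.9%), Sycp3 (88.9%), Majin (88.8%) and Msh4 (87.9%). Stra8 is the gene induced by retinoic acid at the start of meiosis, and the Sycp and Syce genes build the synaptonemal complex. Exercised samples were higher in 7 and lower in 8 of the 15, the median difference was -0.0519 points, and 0 were called (edgeR). Groups were apart in 1 region with lower values, Syce1, at 87.1% ± 1.60 against 92.7% ± 3.56. They were also apart in 1 with higher values, Sycp1, at 95.8% ± 0.563 against 93.6% ± 2.39. The shares over all tested regions were 2.35% apart with lower values and 4.91% with higher values.

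Tudor-domain genes outside the members had levels near those of all tested regions. Of 19 tested regions, among them histone readers and demethylases, 0 were at 50% or more, where 5.11% of all tested regions were, and the highest was Kdm4a, a histone demethylase, at 41.1%. Their median was 22.1%, or 2.15% without stand-alone positions, beside 22% and 2.71% for all tested regions. Of the 4 Tudor-domain members, Tdrd1 and Rnf17 stood above this, at 69.6% and 68.2% with no stand-alone position. Tdrd5 and Tdrkh did not, at 15.2% and 15.3%, or 1.97% and 2.37% without stand-alone positions. Exercised samples were higher in 13 and lower in 6 of the 19, the median difference was 0.537 points, and 0 passed the test (edgeR). Groups were apart in 1 of the 19, Smndc1, with a difference of -4.50 points. Among all tested regions 2.35% were apart with lower values and 4.91% with higher values.

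**Figure D5:**
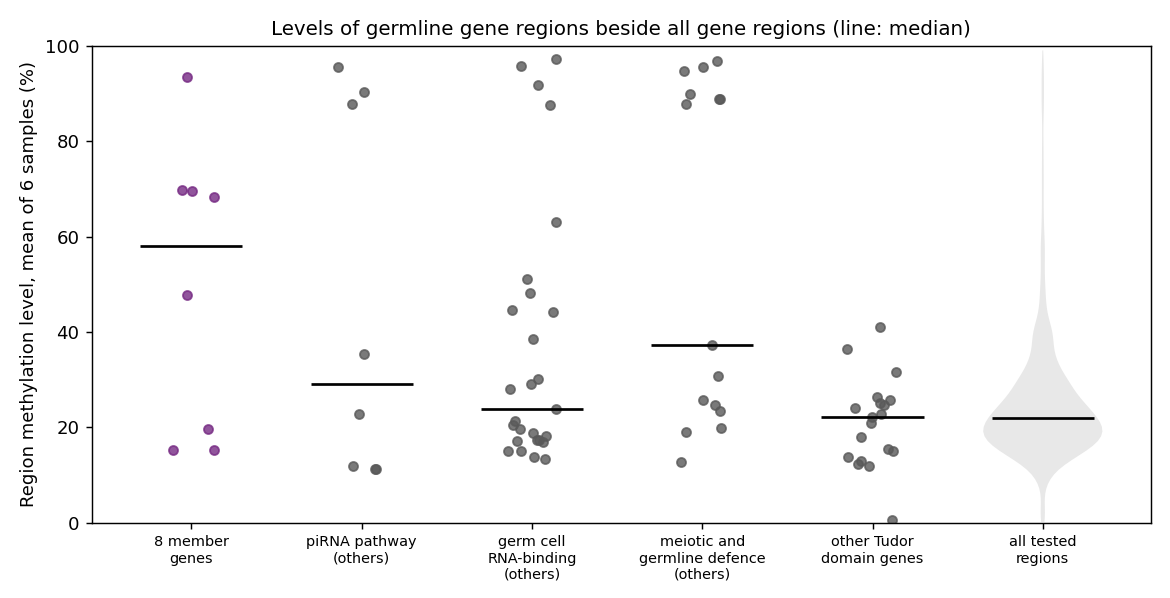
Region methylation level as the mean of 6 samples (y axis, %) for the 8 members, for the other genes of 4 lists, and for all tested regions (grey density), with black lines at medians. The medians are 58.0% for the members and 22% for all regions, and the other Tudor-domain genes all lie under 50%.

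Of 7396 other regions with at least 10 positions, the 3 whose levels over the 6 samples were closest to those of Tdrd1 were Tmem267, Nnat and 1700067K01Rik, with mean absolute gaps of 5.79, 6.62 and 7.24 points. None had groups apart as in Tdrd1. Their means in exercised and sedentary samples were 65.1% and 67.6% for Tmem267, 66.7% and 67.8% for Nnat, an imprinted gene, and 73.6% and 73.2% for 1700067K01Rik. The likeness is thus one of level over 6 samples.

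Motifs were counted in RefSeq promoter windows, from 250 bp before to 50 bp after a start site, on both strands. The E-box CACGTG is in 7.15% of all 32851 promoters, and it was present in Ddx4 (29 bp upstream), Mael (at -223) and 2 of the 3 Tdrd1 promoters. Those 2 Tdrd1 windows overlap and hold the same site. The letters GCGGGA, the core of E2F sites, are in 19.98% of promoters and were found in Tdrd5, Mael and Ddx4. The longer form GGCGGGAA, which contains that core, is in 2.19% and was found in Ddx4 alone of the 6 genes with a promoter entry. The MspI site CCGG is in 52.8% of promoters and in at least 1 promoter of all 6. A match is only a match of letters.

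Regions of other cell types' markers bear on bulk tissue and are given beside the Tdrd1 and Adad1 differences. Of 6 genes taken as adipocyte markers 4 had a tested region. Their mean level ran from 56.7% to 58.1% in exercised samples and from 59.6% to 63.7% in sedentary ones. The groups were apart in this mean, yet among the 4 regions only in Slc2a5, with lower values in exercised samples. Of all tested regions 2.35% were apart in that direction. Slc2a5 differed by -8.50 points, while Lep (-8.03), Fabp4 (-3.50) and Pparg (0.754) had overlapping groups. The separated mean thus does not describe the 4 alike. Leukocyte markers (2 of 7) ran from 25.2% to 28.4% against 26.9% to 28.6%, endothelial markers (3 of 6 genes) from 32.7% to 37.4% against 33.1% to 41.6%, and germ cell markers, which include Ddx4 and Dazl, from 68.7% to 70.3% against 66.9% to 70.8%. Of the 10 skeletal muscle markers 2 were measured, Acta1 at 72.3% over 3 positions and Pvalb at 0.370%, which is too few to check the tissue label. The part of the cell mixture in the differences was not tested.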

How the data were processed

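RRBS libraries of 6 quadriceps samples, 3 exercised and 3 sedentary, were analysed from 1 table. Per the submitters' processing notes the tools were Bismark 0.7.7, Bowtie 0.12.9, cutadapt 1.0 and Trim Galore 0.2.5, with mm9 as the build. Their settings are not given in the labels. The authors deposited, per sample, a methylated fraction (0 to 1) and a coverage count of reads at every position, with at least 10 reads in every sample. A group difference and an unadjusted p-value per position were deposited as well. Fraction times coverage was whole within 0.00236 reads and gave the methylated counts. Reads carry no molecular identifiers in the labels, so depth covers counting error only.

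Symbols were matched for 10655 of 10755 transcripts through RefSeq (GRCm38.p6). Coordinates of positions and regions are those of the deposited table. The start site was placed from the data: in promoter windows of RefSeq, 79.5% of 40897 positions fell on a CpG when a region was taken to hold 2000 bases before the start site and 1000 from it on, against at most 26.4% for placements 2 or more bases away. No coordinates were converted. Distances count the start site as 0. The strand came from the promoter entry, and 6 of the 8 members had one. Adad1 and Rnf17 were therefore not placed. All 45 Tdrd5, 29 Ddx4 and 8 of 10 Mael cytosines lay in a window. The Tdrd1 and Dazl cytosines lay outside it, and those of Tdrkh did not fall on CpGs of its promoter entry. Positions within 150 bp whose coverage differed by at most 20% in every sample were taken as sharing reads.

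Methylated and unmethylated counts were fitted in edgeR 4.0.16 under R 4.3.3 (quasi-likelihood), with a term per sample and a group term on methylated counts, for 10021 regions of at least 3 positions and for 253960 positions, with Benjamini-Hochberg adjustment over all of them at 0.05. The test was checked on simulated data, where the test on positions found few changes of moderate size. Differences are of group means in percentage points, with SEs over samples. The members and lists were chosen with earlier results of these data known. Named genes were the 8 members, list genes at 50% or more or past the test, the 3 regions most like Tdrd1 by mean absolute gap, and per member the position with the largest difference in each direction. Kdm4a, Tsn, Ythdc2, Elavl2, Smndc1, Acta1, Pvalb and the adipocyte markers fall outside this rule and were picked with their values in view, as were the E-box CpG of Ddx4 and the sets of cytosines described. Alternatives were a replicate block, each sample left out, a coverage of at least 20, removal of the highest coverage, of stand-alone positions or of MspI-site positions, merged strands, limma 3.58.1 on log2((methylated + 2)/(unmethylated + 2)), at least 5 positions, unweighted means and a negative binomial dispersion of 0. The last and the removal of MspI-site positions were chosen after seeing the data. Sequences and motifs come from RefSeq.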

Additional observations from a re-analysis of the deposited data

How the results depend on the processing

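No region was called under any of the 14 alternatives of the region test (edgeR or limma), where 237 had an unadjusted p under 0.05 in the test as reported, 204 with a replicate block, 283 with limma and from 169 to 601 with 1 sample left out (601 without exercised sample 3). For single positions 0 were called (8426 unadjusted, 9068 with limma), except 1 with strands merged and 150 with a negative binomial dispersion of 0, none of them in a member gene. The replicate block gave 0 regions and 0 positions (1852 unadjusted). The labels do not say whether replicate numbers pair the samples. Deviations of same-numbered samples correlated at 0.0190, -0.219 and -0.111 over regions, and those of other pairs from -0.101 to 0.221. With 3 samples per group such deviations are tied to each other, so these values do not decide it. The differences of Tdrd1, Adad1, Mael and Ddx4 kept their direction with each sample left out and as unweighted means. Those of Ddx4 and Mael did so without MspI-site positions. At a coverage of at least 20 those that could be fitted did too, with Ddx4 at only 0.0180 points. The other alternatives left the differences of these genes as they were, so they could not turn them. The Tdrd5 difference of -0.106 points turned to 0.238 at a coverage of at least 20, 0.345 without stand-alone positions, 0.345 without MspI-site positions and 0.668 as an unweighted mean, and ran from -0.672 to 0.545 with 1 sample left out. The Tdrkh difference turned to 1.10 without stand-alone positions and 0.381 as an unweighted mean, and ran from -5.94 to 0.0521 with 1 sample left out. Rnf17 ran from -10.7 to 0.991 with 1 sample left out and was -6.75 as an unweighted mean. Dazl was 0.657 as an unweighted mean. The cause of these changes was not tested. Tdrd1 stood at -20.0 points at a coverage of at least 20, where Tdrkh, Rnf17 and Mael had too few positions to be fitted. Positions rest on as few as 10 reads, so differences of single cytosines are the least precise values given.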
